A study of Mus musculus with 4 samples.

Results

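Regulatory T cells of the aged mouse lung were described here as the 150 barcodes of 68675 kept barcodes, and of 4804 T cells, that carried Foxp3 RNA. Barcodes needed 500 or more genes and 1000 or more UMIs, with mitochondrial UMIs no higher than 10%. A UMI (unique molecular identifier) marks 1 captured RNA molecule. A T cell had a UMI of at least 2 of the 4 genes Cd3d, Cd3e, Cd3g and Trac and none of the B cell gene Cd79a. A regulatory T cell also had at least 1 UMI of Foxp3 and none of Cd8a, Cd8b1 or Trdc, the genes of CD8 and gamma-delta T cells. They were compared with 876 Foxp3-negative CD4 T cells, which passed the same gate with at least 1 UMI of Cd4 and none of Foxp3.

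The lungs came from male C57BL/6 mice that were 19 months old at the start and received BPTES, a small-molecule inhibitor of glutamine metabolism, or its vehicle DMSO for 1 month. Lung tissue was digested with Liberase, and each library mixed 20000 cells sorted as CD45-negative with 9000 sorted as CD45-positive from the same tissue, on the 10x GEM-X platform that reads transcript 3-prime ends. Each group had 2 libraries. The labels do not say that the libraries came from separate animals, so p-values measure the spread between libraries. Because the 2 fractions were mixed in fixed numbers, shares of T cells are used below and shares of all lung cells are not.

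Regulatory T cells are the CD4 T cells that restrain other immune cells, and the transcription factor Foxp3 defines the lineage. They take up interleukin 2 through a receptor whose alpha chain is Il2ra, and they carry Ctla4, which removes costimulatory ligands from antigen-presenting cells. In lung and other barrier tissues, a subset carries the interleukin 33 receptor ST2 (gene Il1rl1) and secretes the epidermal growth factor ligand amphiregulin (gene Areg), which takes part in tissue repair.

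The 250 bases upstream of the annotated starts of Foxp3 (ENSMUSG00000039521), Ctla4 (ENSMUSG00000026011), Il2ra (ENSMUSG00000026770) and Il1rl1 (ENSMUSG00000026069) are shown because the class is defined by the first, checked with the next pair, and divided within by the last. Foxp3 and Il1rl1 each have 2 annotated starts; the start with a match is shown, and the promoter of the other start of each gene held no match to the 4 motifs. The sequences are from RefSeq, build GRCm38.p6, written 5′ to 3′. Capitals mark matches, on either strand, to TGTTTAC (forkhead), TTCNNNGAA (STAT), TGANTCA (AP-1) or GGAAAA (NFAT), and overlapping matches run together.
Foxp3, the downstream of its annotated starts (chrX:7580233-7580482, plus strand): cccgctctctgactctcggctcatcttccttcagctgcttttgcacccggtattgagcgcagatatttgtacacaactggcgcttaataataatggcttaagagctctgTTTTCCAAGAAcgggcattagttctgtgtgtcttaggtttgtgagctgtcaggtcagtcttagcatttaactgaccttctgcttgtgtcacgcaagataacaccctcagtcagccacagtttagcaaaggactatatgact
Ctla4 (chr1:60908775-60909024, plus strand): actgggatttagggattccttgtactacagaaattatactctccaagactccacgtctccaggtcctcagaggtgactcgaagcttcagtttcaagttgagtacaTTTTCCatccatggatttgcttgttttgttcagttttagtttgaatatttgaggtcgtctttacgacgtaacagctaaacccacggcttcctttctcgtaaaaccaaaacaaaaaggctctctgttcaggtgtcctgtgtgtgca
Il2ra (chr2:11642542-11642791, plus strand): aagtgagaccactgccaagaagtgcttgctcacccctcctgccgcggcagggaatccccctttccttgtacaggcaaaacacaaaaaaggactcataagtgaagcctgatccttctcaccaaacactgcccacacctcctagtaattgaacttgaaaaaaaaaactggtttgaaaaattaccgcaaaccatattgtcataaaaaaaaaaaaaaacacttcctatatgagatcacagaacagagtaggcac
Il1rl1, the downstream of its annotated starts (chr1:40439379-40439628, plus strand): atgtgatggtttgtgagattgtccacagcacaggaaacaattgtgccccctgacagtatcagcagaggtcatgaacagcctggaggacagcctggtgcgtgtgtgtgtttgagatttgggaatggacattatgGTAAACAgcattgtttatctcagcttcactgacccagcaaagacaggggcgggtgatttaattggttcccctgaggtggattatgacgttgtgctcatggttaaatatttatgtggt
A STAT and an NFAT match overlapped upstream of Foxp3, Ctla4 held 1 NFAT match, Il1rl1 held 1 forkhead match, and none of the 4 motifs was found in these letters for Il2ra. In all 32851 RefSeq promoters of 300 bases (250 before and 50 after a start), a forkhead match was present in 3.65%, STAT in 8.30%, AP-1 in 7.81% and NFAT in 23.4%. The promoters of genes higher in regulatory T cells (described below; 154 of the 203 genes matched, 208 promoters) held these matches in 2.88%, 8.17%, 6.25% and 20.7%. Those of genes lower in regulatory T cells (149 of the 202 genes matched, 206 promoters) held them in 3.40%, 7.77%, 4.37% and 21.8%. The promoters of all genes tested held them in 2.70%, 6.80%, 4.86% and 20.8%.

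The libraries named BPTES 1, BPTES 2, DMSO 1 and DMSO 2 held 49, 41, 26 and 34 regulatory T cells. Their median depths were 12419, 12629, 11999.5 and 16380 UMIs, against 15205.5, 14692, 14825 and 14718 in Foxp3-negative CD4 cells. Any 2 libraries shared between 65 and 104 cell barcodes (0.423% to 0.642% of the smaller library).

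The label of the class was checked against markers that the rule did not use. Of the 150 cells, 147 had a Ctla4 UMI, 118 an Il2ra UMI and 116 both, while 1 had neither. Cd4, which the rule did not require, was present in 132. Of the cells, 131 held at least 2 Foxp3 UMIs, with a median of 5 and a maximum of 26 over all members, and 19 held exactly 1.

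Foxp3 UMIs also appeared at a low rate in cells that should lack the gene. A Foxp3 UMI was found in 0% to 0.295% of B cells (median depths 12772.5 to 13115 UMIs), 0.0679% to 0.141% of endothelial cells (12467 to 13618.5), 0.0524% to 0.382% of fibroblasts (20163 to 22124.5) and 0.0580% to 0.220% of myeloid cells (20932 to 23418). It was found in 0% to 0.526% of Cd8a T cells (18695 to 20374). Among T cells without Cd8a, Cd8b1 or Trdc it was found in 9.23% (BPTES 1), 6.94% (BPTES 2), 7.10% (DMSO 1) and 7.25% (DMSO 2), at medians of 15177 to 15562 UMIs.

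For Ikzf2, Il2ra, Ctla4 and Tcf7, cells just inside the Foxp3 threshold lay between the comparison class and the rest of the members. With no Foxp3 UMI, 1, 2 to 4, and 5 or more, the summed level of Ikzf2 (Helios, a transcription factor of thymus-derived regulatory T cells) was 107, 567, 1453 and 1653 CPM (the gene's UMIs in the summed cells, scaled to a common total). Il2ra stood at 32.9, 140, 175 and 242 CPM over the same bins. Ctla4 stood at 651, 1315, 2265 and 2091 CPM, and Tcf7, a factor of naive and memory T cells, at 444, 253, 148 and 70.4 CPM. Gzmk, a granzyme of cytotoxic and effector-memory T cells, had no UMI in any of the 3 bins of members. Areg stood at 70.5, 352, 561 and 568 CPM and Il1rl1 at 9.44, 55.3, 189 and 331 CPM, in the same order. Tnfrsf4, Tnfrsf18 and Eomes also had the cells with 1 Foxp3 UMI in between. Cd4 and Ccl5 did not follow that order. Cd4 stood at 259, 96.0, 182 and 164 CPM, but the cells of the first bin had been selected for Cd4 and the members had not. Ccl5 stood at 611, 69.8, 81.6 and 51.3 CPM and was detected in 29.3%, 47.4%, 25.0% and 15.2% of cells. By level, the cells with 1 Foxp3 UMI thus lay with the other members. These values describe the threshold and were not tested.

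**Figure D1:**
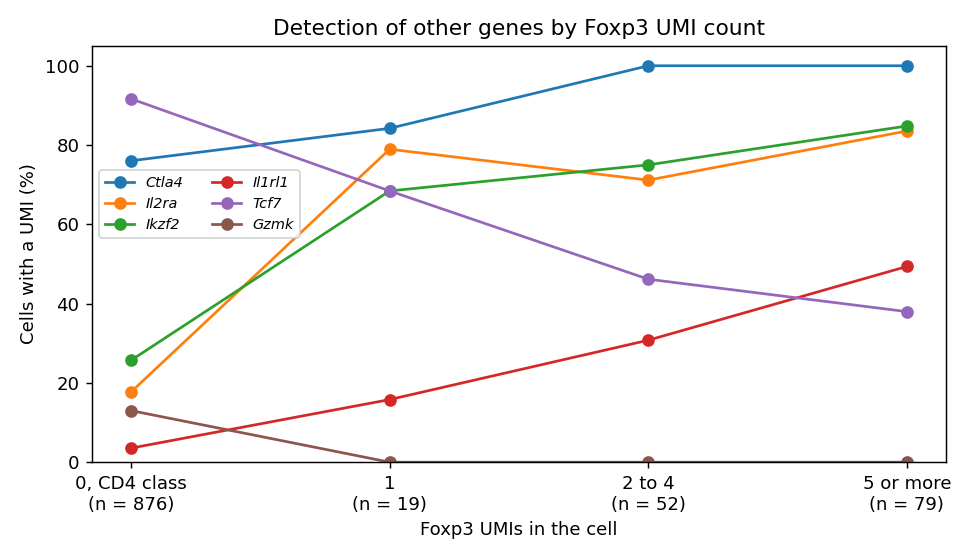
Share of cells (%) with a UMI of 6 genes, by the number of Foxp3 UMIs in the cell; the first bin is the Foxp3-negative CD4 class and the others are regulatory T cells, pooled over 4 libraries. Il1rl1 was detected in 3.54% of the first bin and 49.4% of the last, and Tcf7 in 91.7% and 38.0%.

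Some barcodes also held RNA of other cell types. Of the 150 members, 34 had at least 2 UMIs of each of 2 or more markers of 1 other class (11, 7, 6 and 10 in BPTES 1, BPTES 2, DMSO 1 and DMSO 2). The summed level of the 6 monocyte and macrophage markers was 1684 and 740 CPM in the BPTES members and 4257 and 2462 CPM in the DMSO members, with 0 or 1 marker at 0. That of the 5 neutrophil markers was 853 and 1026 CPM against 55.8 and 54.9 CPM, with 1 and 0 of them at 0 under BPTES and 2 in each DMSO library. In Foxp3-negative CD4 cells the neutrophil markers stood at 213 and 357 CPM with BPTES and 140 and 418 CPM with DMSO. Without the 34 barcodes the levels in members were 60.9 to 85.2 CPM for the first set and 21.8 to 60.9 CPM for the second. The removal used markers of these sets, so the fall follows from it. The 4 plasma cell markers were at 213 to 289.8 CPM in members against 78.0 to 105.3 CPM in Foxp3-negative CD4 cells. In the restricted set they were at 263 to 339 against 77.5 to 117 CPM. The plasma cell set includes Ighm, which was detected in 75.3% of members, 53.8% of Foxp3-negative CD4 cells and 58.6% of CD8 T cells. Ighm was also among the genes called higher in members, and the source of its RNA was not tested. The 5 alveolar type 2 markers were at 63.5 to 298 CPM in members. In Foxp3-negative CD4 cells they were at 5971 and 746 CPM with BPTES and 85.0 and 167 CPM with DMSO, and at 89.9 to 299.9 CPM in the restricted set. The 4 NK cell markers and the 3 mast cell and basophil markers were at 0 in members of all 4 libraries. The shares and gene comparisons below were also computed on the 116 members left without such barcodes, and on Foxp3-negative CD4 cells treated alike; this is called the restricted set.

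Regulatory T cells differed from Foxp3-negative CD4 cells in 405 of 9850 genes tested: 203 were higher (2.06%) and 202 lower (2.05%). The test was edgeR's quasi-likelihood test on UMIs summed per library and class, with the library as a block and Benjamini-Hochberg adjustment over all genes (called at an adjusted p under 0.05). Over the genes tested the median log2 fold change was -0.00377. DESeq2 on the same sums called 538 of the 9850, 276 higher and 262 lower. With edgeR at an unadjusted p under 0.05, 861 were higher (8.74%) and 808 lower (8.2%). Without BPTES 1, BPTES 2, DMSO 1 or DMSO 2 the calls numbered 66, 174, 201 and 245. The restricted set gave 931 of 8234, 493 higher (5.99%) and 438 lower (5.32%). All 405 kept their sign in the 3 fits that left out BPTES 2, DMSO 1 or DMSO 2. So did the 403 of them tested without BPTES 1, and 390 of the 391 tested in the restricted set. The 405 were chosen by the full fit and these fits reuse its cells, so kept signs are no independent check. The genes of the selection rule were not tested. Foxp3 stood at 386 and 379 CPM (scaled by TMM library sizes, as are the levels that follow) in BPTES members and at 280 and 315 CPM in DMSO members, and Cd4 at 149 to 174 CPM against 243 to 289 CPM in the comparison class, which had been selected for Cd4.

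Of the 27 tested genes on a list of core regulatory T cell genes, 13 were higher and 0 lower, with a median log2 fold change of 0.62. The restricted set gave 16 higher and 1 lower (Runx3). Il2ra was at 277, 168, 194 and 174 CPM in members of BPTES 1, BPTES 2, DMSO 1 and DMSO 2, against 29.7 to 38.0 CPM in Foxp3-negative CD4 cells. The 2 ranges did not overlap, and the log2 fold change was 2.59 (SE 0.17, edgeR adjusted p = 0.000823). Ctla4 was at 2023, 2147, 1914 and 2097 CPM against 578 to 748 CPM (log2 fold change 1.63, SE 0.09, edgeR adjusted p = 0.000766). Ctla4 was thus also abundant in the comparison class, where 76.0% of cells had a UMI.

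Ikzf2 (ENSMUSG00000025997) was at 1667 and 1793 CPM in the BPTES members and 1114 and 1107 CPM in the DMSO members, against 61.5 to 178 CPM in the comparison class. Its log2 fold change was 3.72 (SE 0.31, edgeR adjusted p = 0.00215), and it was detected in 119 members. The costimulatory receptors of the tumour necrosis factor family were higher as well: Tnfrsf9 (4-1BB) at 368 ± 92.9 against 29.6 ± 7.45 CPM, Tnfrsf4 (OX40) at 424 ± 47.9 against 95.3 ± 17.6 CPM and Tnfrsf18 (GITR) at 186 ± 36.0 against 63.9 ± 13.9 CPM (mean ± SD, n = 4 libraries). The other called genes of this list were Capg, Cd27, Ikzf4, Itgae, Izumo1r (the folate receptor family member FR4), Lrrc32 (GARP, which docks latent TGF-beta on the cell surface) and Nrp1. All 13 were higher in 4 of 4 libraries. Leaving out each library in turn, 7 of the 13 kept their call every time: Capg, Ctla4, Ikzf2, Il2ra, Nrp1, Tnfrsf4 and Tnfrsf9. The count was 7 without BPTES 1, 11 without BPTES 2, 13 without DMSO 1 and 10 without DMSO 2.

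Not every familiar marker separated the classes. Icos was at 740 ± 173 CPM in members and 597 ± 96.4 CPM in the comparison class (log2 fold change 0.30, edgeR adjusted p = 0.253), and Tigit at 59.1 ± 14.6 and 38.6 ± 6.74 CPM (0.62, edgeR adjusted p = 0.144). In the restricted set both were called (adjusted p = 0.0201 and 0.00932).

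Of 17 tested suppressor effector genes, 6 were higher and 1 lower, with a median log2 fold change of 0.73. Of 16 tested in the restricted set, 8 were higher and 2 lower (Fasl and Prf1). Itgav and Itgb8 encode the chains of the integrin that activates latent TGF-beta, and both were higher. Itgav (ENSMUSG00000027087) was at 1307, 1136, 866 and 940 CPM in the 4 libraries in the order above, against 156 to 159 CPM (log2 fold change 2.74, SE 0.12, edgeR adjusted p = 0.000489). Itgb8 was at 75.8, 14.7, 107 and 47.2 CPM against 0.789 to 10.2 CPM (3.47, SE 0.50, edgeR adjusted p = 0.0131), and lost its call without BPTES 1 or DMSO 1 (adjusted p = 0.121 and 0.0647). Pdcd1 (the PD-1 receptor) was at 84.6 ± 15 against 23.4 ± 4.82 CPM, and the remaining higher genes were Ebi3, Fgl2 and Nt5e. Fasl, the ligand of the death receptor Fas, was lower at 7.62 ± 4.79 against 76.6 ± 13.3 CPM. Without BPTES 1, BPTES 2, DMSO 1 and DMSO 2 in turn, 3, 4, 3 and 5 of the 7 were called; Fasl, Itgav and Pdcd1 were called each time and the other 4 were not.

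Il10 and Tgfb1, which encode soluble suppressor cytokines, were not called. Il10 had UMIs in 14 members, 45.2% of them in 2 cells, and was at 86.4 CPM in BPTES 1 and 8.84 to 13.7 CPM in the other 3 libraries, against 7.22 to 29.8 CPM (edgeR adjusted p = 0.964). Tgfb1 was at 164 ± 29.0 and 136 ± 4.56 CPM (edgeR adjusted p = 0.368, and 0.0436 in the restricted set).

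Of 20 genes listed for ST2-positive, tissue-repair regulatory T cells, 6 were higher and 0 lower, with a median log2 fold change of 0.65. The restricted set gave 12 higher. Il1rl1 was at 295, 299, 284 and 123 CPM in members of BPTES 1, BPTES 2, DMSO 1 and DMSO 2, against 6.98 to 11.5 CPM. DMSO 2 was the lowest library and still stood above every value of the comparison class (log2 fold change 4.60, SE 0.31, edgeR adjusted p = 0.000823). Areg was at 655, 530, 493 and 439 CPM against 58.9 to 90.0 CPM (2.85, SE 0.15, edgeR adjusted p = 0.000679) and was detected in 104 members. Klrg1, an inhibitory receptor for cadherins, was at 67.0 to 91.4 CPM against 1.44 to 6.15 CPM (4.59, SE 0.34, edgeR adjusted p = 0.00117). These 3 kept their calls without each library in turn, while Ccr8, Nfil3 and Samsn1 did not. Gata3, a transcription factor shared with type 2 helper cells, was at 199 ± 60.7 against 92.0 ± 23.3 CPM (edgeR adjusted p = 0.0954), and at 6.87e-05 in the restricted set.

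**Figure D2:**
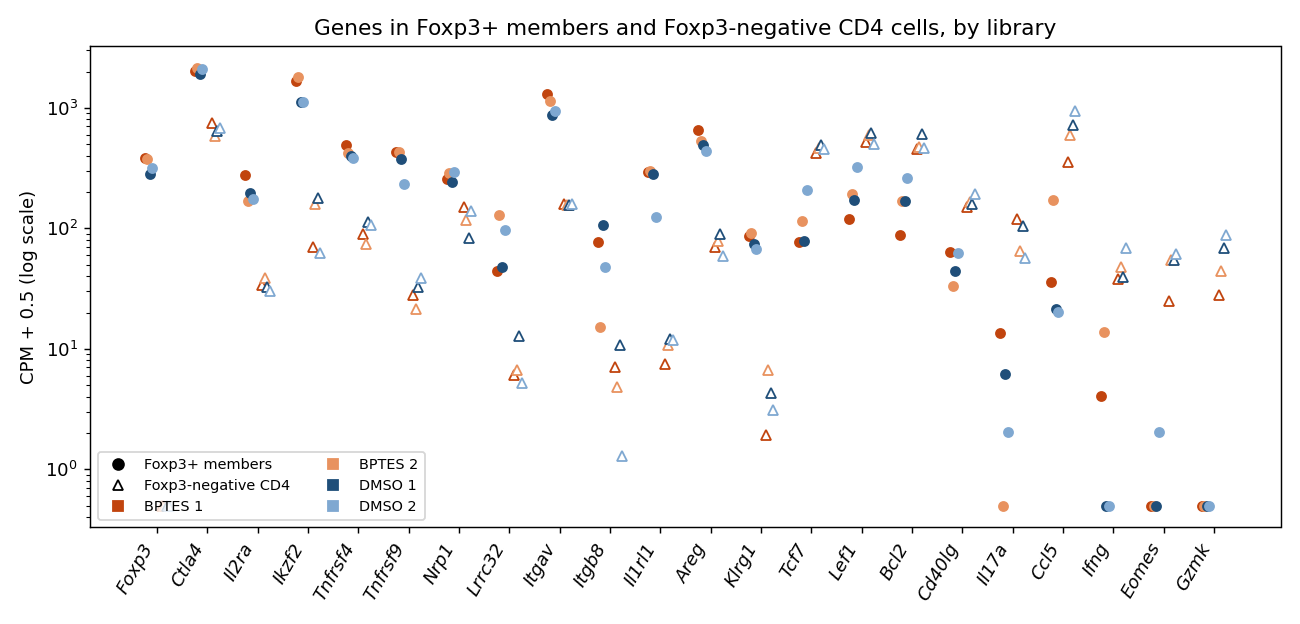
Levels of 22 genes (TMM-scaled CPM plus 0.5, log scale) in regulatory T cells (filled circles, labelled Foxp3+ members) and Foxp3-negative CD4 T cells (open triangles), 1 point per library and class. Foxp3 was part of the selection; Il1rl1 stood at 123 to 299 CPM against 6.98 to 11.5 CPM, and Gzmk at 0 against 27.5 to 87.3 CPM.

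Genes of resting T cells went the other way. Of 14 tested, 0 were higher and 7 lower, with a median log2 fold change of -1.06; all 7 were lower in 4 of 4 libraries. Tcf7 (ENSMUSG00000000782) was at 75.8, 113, 78.1 and 209 CPM in members and 424 to 493 CPM in Foxp3-negative CD4 cells (log2 fold change -2.04, SE 0.25, edgeR adjusted p = 0.00758). Lef1, a related factor, was at 200 ± 85.4 against 556 ± 57.2 CPM, and the survival gene Bcl2 at 171 ± 70.6 against 500.3 ± 71.1 CPM. Bach2, Dapl1, Igfbp4 and Ikzf1 were the other called genes. None of the 7 was called without BPTES 1, against 5, 3 and 6 without BPTES 2, DMSO 1 and DMSO 2, and 12 were lower in the restricted set. Ccr7, a chemokine receptor for homing to lymph nodes, was at 240 ± 107 and 361 ± 67.5 CPM and was not called (edgeR adjusted p = 0.315).

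Of 21 tested genes for helper lineages and their cytokines, 7 were lower and 1, Hopx, was higher; of 19 in the restricted set 10 were lower and 3 higher. Gzmk (ENSMUSG00000042385) had no UMI in any member and 818 UMIs in the comparison class, so its mean level was at least 51.2-fold lower (floor of 3 UMIs over all members, which covers counting error only). Eomes, a factor of cytotoxic and memory T cells, had UMIs in 1 member, at 0.381 ± 0.761 against 48.6 ± 16.3 CPM (edgeR adjusted p = 0.0014). Il17a, the cytokine of Th17 cells, was at 13.0, 0, 5.71 and 1.52 CPM against 56.5 to 119 CPM (edgeR adjusted p = 0.00478). Ccl5, Ifng, Il2 and Nkg7 were also lower. Ccl5 was at 35.5, 172, 20.9 and 19.8 CPM against 353 to 942 CPM, and 53.8% of its UMIs in members came from 2 cells. Ifng had UMIs in 3 members. Without BPTES 1, BPTES 2, DMSO 1 and DMSO 2 in turn, 4, 7, 4 and 5 of the 8 were called. Eomes, Gzmk, Il17a and Hopx were called each time, while Il2 and Nkg7 were not. Ccl5 lost its call without BPTES 1 or DMSO 1, and Ifng without BPTES 1, DMSO 1 or DMSO 2.

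Activation and trafficking genes were divided. Of 22 activation genes, Rel, an NF-kappaB subunit needed for Foxp3 induction, and Nfkbia were higher, at 510 ± 40.9 against 293 ± 34.4 CPM and 1216 ± 155 against 719 ± 76.4 CPM. The helper ligand Cd40lg was lower at 50.4 ± 14.9 against 166 ± 17.9 CPM (edgeR adjusted p = 0.00546), as were Tnfsf8 and Tnfsf11. Of these 5, Cd40lg alone was called without each library in turn, and the counts without BPTES 1, BPTES 2, DMSO 1 and DMSO 2 were 1, 4, 4 and 2. Of 16 trafficking receptors, Ccr2 and Cxcr4 were higher and Cxcr6 lower. Ccr2 was at 213, 227, 449 and 279 CPM against 91.8 to 132 CPM (edgeR adjusted p = 0.0152, and 0.0601 without DMSO 2). For the activation list the restricted set gave 4 higher and 3 lower of 22, and for the trafficking receptors 3 higher and 2 lower of 15. Cxcr4 and Cxcr6 each lost their calls whichever of the 4 libraries was left out.

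The remaining lists held few calls. Of 22 glutamine metabolism genes, 0 were called by edgeR, and DESeq2 called 1 (Glud1, higher); 1 was higher and 2 lower at an unadjusted p under 0.05. The glutamine carrier Slc1a5 was at 75.2 ± 7.22 CPM in members and 72.8 ± 4.08 CPM in the comparison class. Of 22 proliferation genes 0 were called by edgeR or DESeq2, with 2 higher at an unadjusted p under 0.05. Of 16 senescence and survival genes edgeR called 0, while DESeq2 called 1 (Lmnb1, higher); 2 were higher and 2 lower at an unadjusted p under 0.05. Ddit4 was the called gene of 15 amino acid stress genes and Ifi27l2a that of 26 interferon response genes, both higher. At an unadjusted p under 0.05, 3 and 7 genes of these lists were higher and 0 lower. Ddit4 lost its call without BPTES 1, BPTES 2 or DMSO 2 and Ifi27l2a without BPTES 1 or DMSO 2, and DESeq2 called Ifi209 as well. edgeR's calls in the restricted set were 3 higher and 1 lower of 16 senescence genes, 0 and 1 of 19 glutamine genes, 1 and 0 of 20 proliferation genes, 3 and 0 of 20 interferon genes and 2 and 0 of 12 amino acid stress genes.

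Genes outside the lists were among the largest differences. Ky, which encodes a protein best known from muscle, was at 61.6, 72.2, 45.7 and 41.1 CPM in members and at 0 to 0.425 CPM in the comparison class, where 2 of 876 cells had a UMI. Its log2 fold change was 8.25 (SE 0.50, edgeR adjusted p = 0.000766), and 36 members had a UMI. Neb, the giant sarcomere protein nebulin, was at 169, 81.0, 97.1 and 73.1 CPM against 3.42 to 8.43 CPM (4.40, SE 0.36, edgeR adjusted p = 0.00179) in 60 members. Frmd5 was at 38.1 to 172 CPM against 1.58 to 5.94 CPM, in 19 members, and Ankrd55 at 19.0 to 75.8 CPM against 2.05 to 3.90 CPM, in 44 members. Dscam and Ccr3 were higher in 18 and 14 members and lost their calls without BPTES 1 (Dscam) and without BPTES 1 or DMSO 1 (Ccr3), and Ccr3 was too low to be tested in the restricted set. On the lower side, Hs3st3b1, Esm1, Xcl1 and Il12rb2 were at 1.32 ± 1.80, 1.5 ± 1.73, 0.592 ± 1.18 and 6.52 ± 9.26 CPM against 44.0 ± 9.50, 33.5 ± 15.9, 22.2 ± 10.6 and 104 ± 27.0 CPM. Xcl1 lost its call whichever of the 4 libraries was left out, and Il12rb2 without BPTES 2, DMSO 1 or DMSO 2. The lower calls also held many cytosolic ribosomal protein genes, such as Rpl12, Rplp0, Rps6 and Rps27, with Eef1a1, Npm1 and Rack1. No cytosolic ribosomal protein gene was among the higher calls. These genes were named after the calls were seen.

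The members were not uniform. Il1rl1 was detected in 58 of 150, Klrg1 in 43 and both in 37, while Ccr7 was detected in 55. The share with Il1rl1 was 44.9% in BPTES 1, 41.5% in BPTES 2, 38.5% in DMSO 1 and 26.5% in DMSO 2. With every cell thinned to 3000 UMIs it was 32.7%, 28.2%, 38.5% and 20.6%, so the groups no longer stood apart.

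Cells with and without an Il1rl1 UMI were set side by side as a description, with no test, since the division used these cells' own counts. Their median depths were 14363.5 and 12899 UMIs, and 19.0% and 25.0% of them held markers of another class. The 58 cells with Il1rl1 had Klrg1 at 196 CPM against 6.06 CPM in the other 92, Gata3 at 371 against 97.6 CPM and Areg at 912 against 299 CPM. Pdcd1 stood at 152 against 44.3 CPM, Itgae (the CD103 chain that binds epithelial E-cadherin) at 167 against 60.6 CPM and Ikzf2 at 2110.3 against 1030.0 CPM. These 6 genes were higher in the cells with Il1rl1 in all 4 libraries.

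The cells without Il1rl1 held more of the resting genes. Tcf7 was at 176 CPM there against 26.4 CPM, Bach2 at 585 against 156 CPM and Ikzf1 at 309 against 153 CPM, with the same order in all 4 libraries for each. Lrrc32 was at 94.0 against 53.7 CPM, again in all 4. Ctla4 hardly differed at 2061 and 2024 CPM, and Foxp3 was at 286 CPM in cells without and 439 CPM in cells with Il1rl1. Gzmb differed mostly in BPTES 2, at 132 CPM with Il1rl1 and 3.23 CPM without. It was at 33.8 and 23.9 CPM in BPTES 1, 8.28 and 2.5 CPM in DMSO 1, and 11.3 and 0 CPM in DMSO 2.

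**Figure D3:**
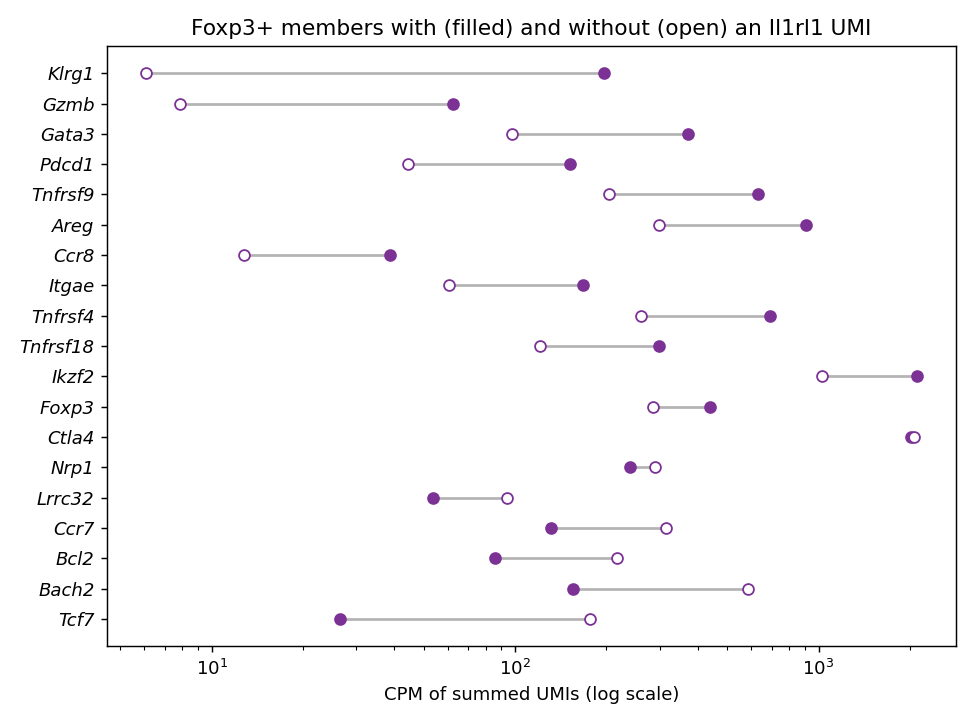
Summed levels (CPM, log scale) of 19 genes in the 58 regulatory T cells with an Il1rl1 UMI (filled) and the 92 without (open), pooled over 4 libraries. Klrg1, Gata3 and Areg lie to the right for the filled points, Tcf7 and Bach2 for the open points, and the Ctla4 points nearly coincide.

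Regulatory T cells made up 4.49% (95% exact binomial interval 3.34% to 5.89%) and 2.96% (2.14% to 4.0%) of T cells in BPTES 1 and BPTES 2. In DMSO 1 and DMSO 2 they made up 2.92% (1.91% to 4.25%) and 2.36% (1.64% to 3.29%). The intervals cover counting error only. Both BPTES values lay above both DMSO values, but BPTES 2 exceeded DMSO 1 by far less than the 2 BPTES libraries differed from each other. The means were 3.73% ± 1.08 and 2.64% ± 0.393 (SD, n = 2), a difference of 1.09 percentage points (two-sided exact permutation test, p = 0.333, the smallest this design allows). Without BPTES 1 the difference was 0.324 points. With cells thinned to 3000 UMIs the shares were 2.78% and 2.37% against 2.56% and 2.10%, the groups overlapped, and the difference was 0.243 points (exact p = 0.667). At 2000 UMIs they were 2.13% and 2.71% against 1.65% and 1.59%, with no overlap and a difference of 0.797 points (exact p = 0.333). The difference was 1.49 points in the restricted set (exact p = 0.333), which lost unequal fractions of cells by library, as given below. Without barcodes with single UMIs of another lineage's markers it was 2.5 points, from 7.19% and 3.28% against 3.36% and 2.10%, and the groups overlapped (exact p = 0.667). They also overlapped when T cells needed 3 of the 4 T cell genes, at 4.52% and 2.82% against 3.01% and 2.47% (exact p = 0.667).

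As a share of CD4 T cells (members and Foxp3-negative CD4 cells together), regulatory T cells made up 16.1% (95% exact binomial interval 12.1% to 20.7%) and 14.3% (10.5% to 18.9%) with BPTES. They made up 15.1% (10.1% to 21.4%) and 13.0% (9.16% to 17.7%) with DMSO. The groups overlapped, and the difference of 1.13 points was within the spread between libraries (two-sided exact permutation test, p = 0.667). It was -1.04 points with cells thinned to 3000 UMIs (exact p = 0.667). Thinned to 2000 UMIs the shares were 16.7% and 22.0% against 15.1% and 14.7%, with no overlap and a difference of 4.47 points (exact p = 0.333). The restricted set gave 3.37 points, again with no overlap (exact p = 0.333). It had lost 25.4% and 25.6% of Foxp3-negative CD4 cells with BPTES against 15.8% and 19.3% with DMSO. Of members it had lost 22.4% and 17.1% with BPTES against 23.1% and 29.4% with DMSO. These unequal losses enter its shares, and their effect was not tested. The set without barcodes with single UMIs of another lineage's markers gave 7.58 points, from 24.0% and 16.95% against 16.92% and 8.86% (exact p = 0.333). It held 12 and 10 members with BPTES and 11 and 7 with DMSO. BPTES 2 and DMSO 1 were nearly equal there, so the groups barely stood apart. The direction and size thus varied with the cells and depth used.

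**Figure D4:**
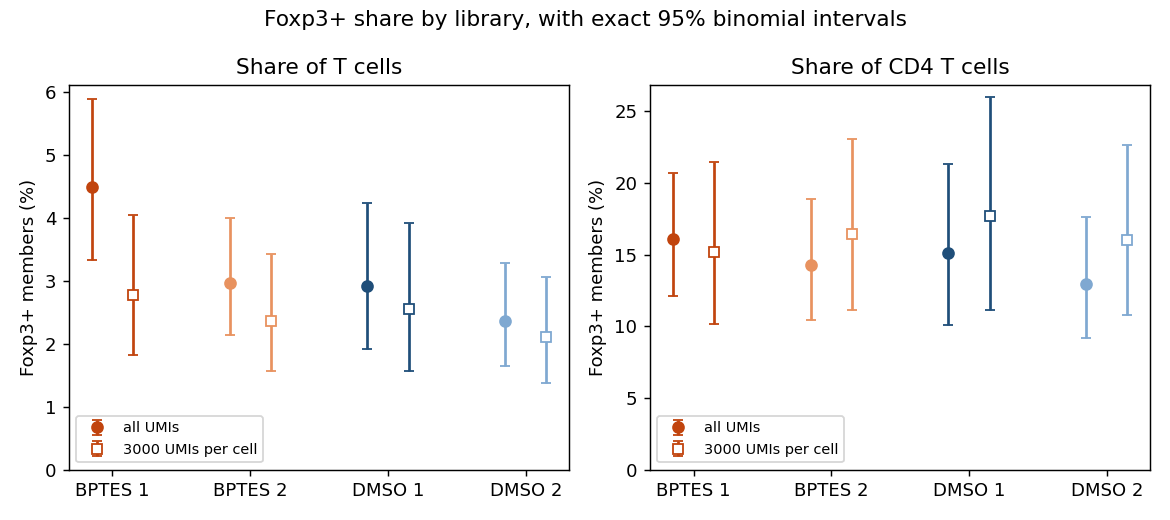
Regulatory T cells as a share (%) of T cells (left) and of CD4 T cells (right) in each library, with all UMIs (filled circles) and with every cell thinned to 3000 UMIs (open squares); bars are exact 95% binomial intervals. The intervals of BPTES 2, DMSO 1 and DMSO 2 overlap in both panels.

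The comparison of BPTES with DMSO within regulatory T cells asked which genes differed between the treatments, and few were called. Of 7808 genes tested by edgeR, 3 were higher and 0 lower with BPTES (0.0384% called). At an unadjusted p under 0.05, 204 were higher (2.61%) and 297 lower (3.8%). DESeq2 made 13 calls, 4 higher and 9 lower. In the restricted set edgeR called 0 of 6016, with 137 higher (2.28%) and 120 lower (1.99%) at an unadjusted p under 0.05. Levels in this comparison were scaled over the 4 sums of members alone.

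S100a8 and S100a9, which encode the subunits of the calprotectin of neutrophils and monocytes, were 2 of the 3. S100a9 had 376 and 362 UMIs under BPTES and 11 and 18 UMIs under DMSO (457 and 546 against 21.6 and 28.5 CPM; log2 fold change 4.3, SE 0.27, edgeR adjusted p = 0.00258). In the BPTES libraries 97.3% of these UMIs lay in 2 cells. S100a8 was at 361 and 275 against 19.6 and 12.6 CPM (4.31, SE 0.33, edgeR adjusted p = 0.00436), with 97.3% in 2 cells. In the restricted set S100a9 had 7, 10, 5 and 16 UMIs and S100a8 had 3, 6, 5 and 6 in BPTES 1, BPTES 2, DMSO 1 and DMSO 2, and both were too low to be tested. Both genes are among the neutrophil markers by which barcodes were removed, so cells rich in them were left out by construction. These low counts are therefore no separate result.

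Gm42418, a gene model that overlaps ribosomal RNA sequence, was the third. It was at 47755 and 48191 CPM with BPTES and 34221 and 33600 CPM with DMSO (log2 fold change 0.50, SE 0.03, edgeR adjusted p = 0.00258). It was found in every member, and 10.3% and 9.91% of its UMIs lay in 2 cells of each group. In the restricted set the log2 fold change was 0.46 and the call was lost (edgeR adjusted p = 0.997). DESeq2 did not call it either (log2 fold change 0.51). Gm42418, S100a9 and S100a8 were called without each library in turn. Each of those fits sets 1 library against 2 and assumes that the lone library varies like the other group, so they say little about stability. The calls in all were 11 higher and 24 lower without BPTES 1, 3 and 0 without BPTES 2, 10 and 43 without DMSO 1, and 9 and 35 without DMSO 2. S100a8 and S100a9 lost their calls when members needed at least 2 Foxp3 UMIs, at log2 fold changes of 3.29 and 3.52 (edgeR adjusted p = 0.808 and 0.764). Requiring Cd4 of the members left 0 calls, with 543 genes at an unadjusted p under 0.05. The log2 fold changes were then 3.32 for S100a8, 3.63 for S100a9 and 0.43 for Gm42418 (edgeR adjusted p = 0.699, 0.657 and 0.227).

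**Figure D5:**
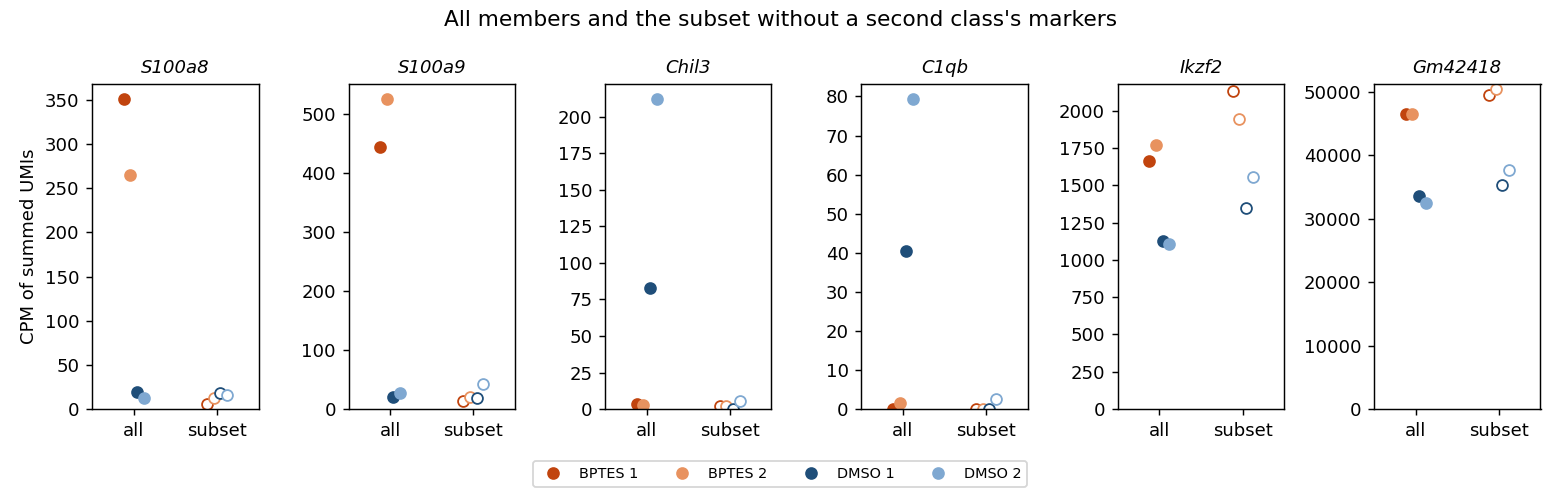
Levels (CPM of summed UMIs, linear axes from 0) of 6 genes in regulatory T cells of each library, for all 150 members (filled) and for the 116 of the restricted set, labelled subset (open). S100a8, S100a9, Chil3 and C1qb separate the groups on the left of each panel and lie near 0 on the right. S100a9 has 5 to 16 UMIs a library there, and S100a8 and S100a9 are among the markers by which barcodes were removed. Gm42418 stays higher with BPTES on both sides.

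Class markers outside the selection rule gave no call for BPTES against DMSO, and Foxp3, as part of that rule, was not tested. Ikzf2 was at 1712 and 1837 against 1149 and 1149 CPM, with no overlap (log2 fold change 0.63, SE 0.11, edgeR adjusted p = 0.324). Il2ra was at 285 and 172 against 200.4 and 180 CPM, with overlap (0.27, SE 0.28, edgeR adjusted p = 0.965). Ctla4 was at 2077 and 2199 against 1975 and 2177 CPM, with overlap and a log2 fold change of 0.04 (SE 0.11, edgeR adjusted p = 0.994).

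Neither the tissue-repair genes nor the resting genes gave a call. Il1rl1 was at 303 and 306 against 293 and 128 CPM, with only DMSO 2 apart (0.54, SE 0.35, edgeR adjusted p = 0.893), and Areg at 672 and 543 against 509 and 455 CPM (0.34, SE 0.18, edgeR adjusted p = 0.841). Tcf7 was at 77.8 and 116 against 80.6 and 217 CPM, with overlap (-0.64, SE 0.45, edgeR adjusted p = 0.908). Of the 27 core genes, 3 had an unadjusted p under 0.05, all higher (Icos, Ikzf2 and Itgae). Of the 20 tissue-repair genes 4 did, all higher (Batf, Prdm1, Rora and Samsn1), and of the 13 tested resting genes 0 did. Of 19 tissue-repair genes tested in the restricted set 1 did (higher), with 2 higher and 1 lower of 27 core genes and 1 higher and 1 lower of 12 resting genes. edgeR and DESeq2 called 0 genes of these 3 lists.

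The glutamine genes, which act in the pathway that BPTES inhibits, gave no call either. Of 18 tested, 1 had an unadjusted p under 0.05 (Gclm, an enzyme subunit of glutathione synthesis, higher). DESeq2 made 0 calls among them. The glutamine carriers Slc1a5, at 76.6 and 84.5 against 80.6 and 68.0 CPM (log2 fold change 0.12, SE 0.26), and Slc38a1, at 169 and 125 against 140 and 103 CPM (0.29, SE 0.27), overlapped between the groups. Slc38a2 was at 164 and 195 against 169 and 185 CPM. Slc7a5 was too low to be tested.

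The other lists gave no edgeR call for BPTES against DMSO. Of 14 suppressor effector genes, 4 were higher at an unadjusted p under 0.05 (Cd274, Gzmb, Itgav and Lgals1), against 0 of 12 in the restricted set. Of 10 helper lineage genes, 3 were higher (Ccl5, Nkg7 and Stat3), and 2 of 9 in the restricted set. The counts higher and lower were 2 and 2 of 15 trafficking receptors, 1 and 1 of 22 activation genes, 1 and 1 of 10 amino acid stress genes, 0 and 2 of 20 interferon genes and 0 and 1 of 15 senescence genes. The restricted-set counts were 1 and 0 of 13, 1 and 1 of 21, 0 and 0 of 8, 1 and 0 of 17, and 0 and 1 of 15 in the same order. The median log2 fold change of the interferon genes was -0.35 in all members and 0.43 in the restricted set, and the log2 fold change of Ccr2, one of the lower receptors, was -0.73 and 0.16. Atf3, a stress-response transcription factor, was the single list member that DESeq2 called. It was at 123 and 64.9 CPM with BPTES and 273 and 292 CPM with DMSO, with no overlap (log2 fold change -1.58, SE 0.31, edgeR adjusted p = 0.324), and its log2 fold change in the restricted set was 0.15.

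Of 21 tested proliferation genes 7 had an unadjusted p under 0.05, all higher with BPTES: Birc5, Ccna2, Cdk1, Cenpf, Nusap1, Top2a and Ube2c. In the restricted set 0 of 15 did, and edgeR and DESeq2 called 0. Counted per cell, 3 of 49 and 2 of 41 members with BPTES (6.12% and 4.88%) had UMIs of at least 3 of 6 cycling genes. With DMSO 3 of 26 and 2 of 34 did (11.5% and 5.88%), so these shares were not higher with BPTES. In the restricted set 2 of 38 and 1 of 34 members did with BPTES, and 1 of 20 and 1 of 24 with DMSO. The other cycling members held markers of another class. Mki67 was at 109 and 380 against 189 and 69.6 CPM, and the groups overlapped.

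Whether the BPTES-DMSO difference differed between regulatory T cells and Foxp3-negative CD4 cells was tested as the interaction of class and treatment. It was called in 25 of 10713 genes (0.233%), 4 with a positive and 21 with a negative term, and in 0 of 9002 in the restricted set, with 344 at an unadjusted p under 0.05. DESeq2 called 59. With the replicate number as block in place of the library, edgeR called 2, 1 with a positive and 1 with a negative term. Among the 25 are genes of macrophages and other antigen-presenting cells (C1qa, C1qb, C1qc, Cd74, Chil3, Fcgr2b, H2-Ab1, Aif1 and Lyve1), named after their values were seen. The summed monocyte and macrophage markers given above were likewise higher in the DMSO members, but stood at 1869 and 1611 CPM with BPTES against 489.7 and 931 CPM with DMSO in Foxp3-negative CD4 cells, the opposite order. Their part in the result was not tested beyond the restricted set.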

How the data were processed

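Lung cells of aged mice were sequenced in 4 droplet libraries, 2 with BPTES and 2 with DMSO. The deposited matrices held UMI counts per gene and barcode, made by the authors with Cell Ranger 8.0.1 on build mm10 per the submitters' processing notes; each held 31054 features, with gene symbols and Ensembl identifiers. Members of the class and all gene lists were chosen with earlier results of these data known.

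Barcodes were filtered and gated as the report states. No doublet caller was run: Cd79a was barred by the gate, and barcodes with markers of another class were left out as an alternative. UMI counts were summed per library and class, and sums were tested with edgeR 4.0.16 (TMM, filterByExpr, quasi-likelihood) in R 4.3.3 with limma 3.58.1. The planned form of that alternative, at a single UMI of each of 2 markers, removed most T cells, so a form with 2 UMIs of each was added after seeing the data. DESeq2 1.42.0 was another alternative. The library was the block in comparisons of 2 classes; BPTES and DMSO were compared without a block. CPM were scaled by the TMM library sizes of each fit, so that a gene's level differs slightly between comparisons. In summed bins and in splits of the members, CPM were unscaled. Shares of cells were compared with two-sided exact permutation tests over libraries, with exact (Clopper-Pearson) 95% binomial intervals. For thinning, each cell was reduced at random to 3000 or 2000 UMIs, shallower cells were left out, and the gates were applied again. Adjusted p-values and calls are from these models across all genes.

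Genes were named by rule: genes of the selection and its markers; the 12 higher and 10 lower called genes with the largest change, the same sign in 4 libraries and a mean of at least 20 CPM in the higher class; called list members; genes known to vary among regulatory T cells; and glutamine carriers. Some results on single genes that the rule selects are not reported here. For BPTES against DMSO these were called genes without overlap and with a mean of at least 10 CPM. Some list members without a call are named as values. Summed depth was 520048 to 846238 UMIs of members per library, which limits low genes. Promoters came from RefSeq. Python 3.11.15, numpy 2.4.6, scipy 1.17.1, pandas 2.3.3 and matplotlib 3.10.9 were used.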

Additional observations from a re-analysis of the deposited data

Results flagged for a closer look

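For 25 genes the difference between BPTES and DMSO in regulatory T cells departed from that in Foxp3-negative CD4 cells. The test was edgeR's, of the interaction of class and treatment on the sums of 4 libraries (adjusted p under 0.05). The genes with the largest terms in each direction were the following, given as log2 differences, which for genes near 0 UMIs depend on the prior count of the fit and are not bounds.

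The positive terms were 5.62 for Cenpf, a kinetochore protein, 5.26 for Ube2c, a mitotic ubiquitin-conjugating enzyme, and 4.34 for S100a9 (edgeR adjusted p = 0.0127, 0.0469 and 0.0127). Cenpf stood at 23.7 and 58.9 CPM with BPTES and 11.4 and 4.57 CPM with DMSO in regulatory T cells. In Foxp3-negative CD4 cells it stood at 3.28 and 5.69 CPM with BPTES and 63.7 and 26.6 CPM with DMSO, so the order of the groups was opposite in the 2 classes. Cenpf had UMIs in 7 and Ube2c in 13 regulatory T cells, with 60.9% and 58.5% of the UMIs in 2 cells. In the 876 Foxp3-negative CD4 cells they had UMIs in 18 and 24, with 48.6% and 37.4% in 2 cells. The levels of both classes thus rest on few cells. S100a9 stood at 445 and 533 against 20.9 and 27.4 CPM in regulatory T cells and at 103 and 208 against 90.4 and 211 CPM in Foxp3-negative CD4 cells. In these 2 classes 93.6% and 55.6% of its UMIs lay in 2 cells.

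The negative terms were -10.06 for C1qb and -9.47 for C1qa, both complement genes of macrophages, and -8.70 for Chil3, a chitinase-like gene of alveolar macrophages (edgeR adjusted p = 0.0269, 0.0469 and 0.00822). Chil3 stood at 3.55 and 2.95 CPM with BPTES and 81.9 and 212 CPM with DMSO in regulatory T cells, with 94.1% of its UMIs in 2 cells. In Foxp3-negative CD4 cells it stood at 129 and 232 CPM with BPTES against 19.5 and 16.0 CPM with DMSO, with 49.7% of its UMIs in 2 cells. C1qa and C1qb had UMIs in 4 and 6 regulatory T cells, with 95% and 90.5% of the UMIs in 2 cells.

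S100a9 is one of the neutrophil markers by which barcodes were removed. Without the barcodes that held markers of another class, C1qa, C1qb and Chil3 were too low to be tested. The terms there were 5.86 for Cenpf, 3.30 for Ube2c and 0.58 for S100a9, none of them called (edgeR adjusted p = 1 for each). Ube2c also lost its call without DMSO 1 or DMSO 2 (edgeR adjusted p = 0.0626 and 0.0692), and S100a9 when members needed at least 2 Foxp3 UMIs or a Cd4 UMI (0.631 and 0.533). With a replicate block Cenpf, Ube2c, C1qb and C1qa were not called (edgeR adjusted p = 0.126, 0.0747, 0.0616 and 0.0849). Their terms were then 5.68, 5.33, -10.02 and -9.51, close to those of the main fit.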

How the results depend on the processing

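The class comparison gave 405 called genes, and 538 with DESeq2. It gave 175 without barcodes with single UMIs of another lineage's markers, 931 in the restricted set and 66 to 245 without each library in turn. BPTES against DMSO gave 3 calls, 13 with DESeq2, 240 without a filter on low counts (78 higher and 162 lower), and 0 where members needed Cd4, without barcodes with single UMIs of another lineage's markers (75 of 2400 genes at an unadjusted p under 0.05) or in the restricted set. Leaving out each library gave 3 to 53. The interaction gave 25 calls, 59 with DESeq2, 420 without a filter, 42 where members needed Cd4, 0 without barcodes with single UMIs of another lineage's markers (201 of 5889 genes at an unadjusted p under 0.05) or in the restricted set, and 30 to 190 without each library. The share of CD4 T cells changed sign when cells were thinned to 3000 UMIs, at -1.04 points against 1.13, but was 4.47 points at 2000 UMIs; the cause of these changes was not tested. Without each library the differences ranged from 0.0594 to 2.20 points for the share of CD4 T cells and from 0.324 to 1.85 points for that of T cells.

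Libraries with the same replicate number correlated at r = 0.0949 over 7808 genes, and no label says what the number marks, so pairing was not assumed. With a replicate block, BPTES against DMSO gave 10 calls and the interaction 2, and the mean differences of the shares were again 1.09 and 1.13 points; without the library block the class comparison gave 597. Il2ra, Ctla4 and the largest class differences, 24 genes in all, kept their direction under every alternative that tested them; 291 of their values kept their side of the threshold and 20 lost their call. Over all class calls, 315 of the 320 tested without single UMIs of another lineage's markers kept their sign. In the restricted set 390 of the 391 did. The 24 genes and the class calls were chosen by the main fit, and the alternatives reuse its cells, so kept signs are no independent check. A 2-against-2 permutation test cannot pass 0.05.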
